A study of Mus musculus with 6 samples.

Results

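RNA-seq counts of the Vgll cofactors (Vgll2, Vgll3 and Vgll4), the TEAD transcription factors (Tead1, Tead2, Tead3 and Tead4) and the Hippo pathway coactivators Yap1 and Wwtr1 were examined in mouse left ventricles after caffeine exposure in utero. These 9 of the 43629 genes in the count tables were taken by symbol. Vgll2 was selected because it was higher in the caffeine-treated hearts in this same comparison, so its values are given as a description, without a test, and support nothing. The other 8 were taken by gene family and pathway. Pregnant CD-1 mice, an outbred strain, had been injected intraperitoneally once a day with normal saline (vehicle) or with 20 mg/kg caffeine. The treatment notes and the methods give embryonic days 6.5 to 9.5 (E6.5–9.5) for the injections, while the extraction notes end them at E10.5. Poly(A) RNA came from the left ventricles of their male offspring at 1 year of age, from 3 hearts per treatment. The sources used here do not say which dam or litter each mouse came from. Every p-value thus weighs the treatment difference against the spread between these 6 samples, not between dams. Hearts that share a dam would not be independent replicates of a treatment given to dams.

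VGLL proteins have no DNA-binding domain of their own and act by binding TEAD factors, which recognise the M-CAT element of muscle gene promoters. YAP and TAZ, the proteins of Yap1 and Wwtr1, bind the same TEAD factors, and the kinases of the Hippo pathway keep YAP and TAZ out of the nucleus by phosphorylating them. In the heart, TEAD1 is known for regulating muscle genes, YAP for cardiomyocyte growth and proliferation, and VGLL4 for competing with YAP for TEAD. Vgll2 is known best from skeletal muscle.

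Promoter sequences are shown first, because TEAD factors act through the M-CAT element. A RefSeq promoter window (250 bases before to 50 after a start of transcription, GRCm38.p6) was at hand for 7 of the 9 genes, Tead1 and Tead4 being named only. The 250 bases upstream of Vgll2 (chr10:52022252-52022501, + strand) held no M-CAT core on either strand, the letters searched being CATTCC and its reverse complement GGAATG. They held a single E-box (CANNTG), with the letters CACGTG, which starts 246 bases before the start site and is in capitals here. Which factors bind this variant was not tested.
Vgll2: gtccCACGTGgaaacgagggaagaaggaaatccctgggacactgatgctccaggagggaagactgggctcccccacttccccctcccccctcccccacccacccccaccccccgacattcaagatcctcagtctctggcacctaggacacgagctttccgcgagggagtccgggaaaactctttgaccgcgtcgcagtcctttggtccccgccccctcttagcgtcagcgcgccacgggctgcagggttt

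An M-CAT core was found in the windows of 5 of the 7 genes, namely Vgll3, Vgll4, Tead3, Yap1 and Wwtr1, and not in those of Vgll2 and Tead2. Of all 27025 genes with a window, 16.6% held one, and so did 14.7% of the 32851 windows. With only the coding strand searched, 2 of the 7 (Vgll3 and Tead3) held one, against 8.7% of all genes. An E-box was present in 3 of the 7 (Vgll2, Vgll4 and Yap1), against 75% of all genes. The CArG box, bound by SRF, and the MEF2 site were found for none of the 7 genes, against 1.81% and 3.7% of all genes. A match is a stretch of letters and shows no binding. For comparison with the members, the M-CAT cores of Acta1 (skeletal muscle α-actin) and Nppb (B-type natriuretic peptide) are shown with them, since these were the only genes of the pathway and muscle gene lists past the thresholds. Each sequence is 30 bases, 5′ to 3′ on the gene's strand, with the M-CAT core in capitals (CATTCC on the coding strand, GGAATG where the core lies on the other strand).
Vgll3 (chr16:65815114-65815143, 63 bases before the start): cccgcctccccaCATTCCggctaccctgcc
Vgll4 (chr6:114969268-114969297, 82 before): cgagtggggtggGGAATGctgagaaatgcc
Tead3 (chr17:28350706-28350735, 123 before): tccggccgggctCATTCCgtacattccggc
Yap1 (chr9:8004720-8004749, 141 before): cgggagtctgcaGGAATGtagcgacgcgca
Wwtr1 (chr3:57576029-57576058, 136 before): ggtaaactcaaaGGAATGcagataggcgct
Acta1 (chr8:123894804-123894833, 46 before): gaagggcagcaaCATTCCttcggggcggtg
Nppb (chr4:147985783-147985812, 105 before): gctcagccggcaGGAATGcagctgataaat

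The Tead3 stretch came from the second of its start sites and is followed by another core starting 114 bases before that site, visible in lower case in the printed stretch. Further Tead3 cores, on the other strand, lay 182 bases before its first start site and at position 3 from the second. Acta1 and Nppb are shown because they passed the thresholds. Myh7, Tnnt2, Myh6 and Acta2, from the same list of muscle genes, also held a core and did not pass, and neither did the 5 member genes with a core.

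**Figure D1:**
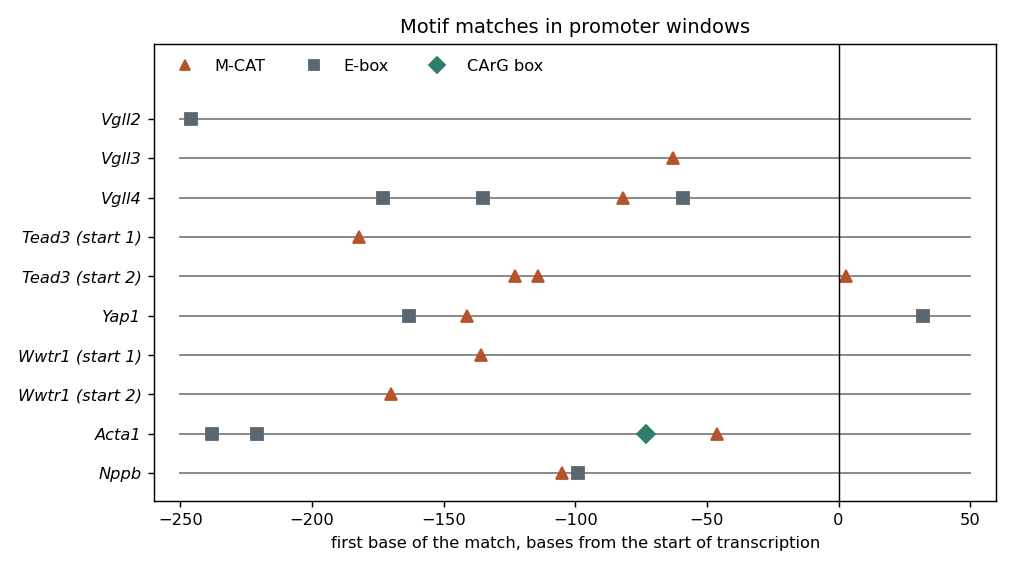
Motif matches in the RefSeq promoter windows of Vgll2, Vgll3, Vgll4, Tead3, Yap1, Wwtr1, Acta1 and Nppb. The x axis gives the first base of each match in bases from the start of transcription, and each row is 1 window. Tead2 had a window without a match and is not drawn. Vgll2 holds 1 E-box at 246 bases before the start and no M-CAT core, and Acta1 has an M-CAT core at 46 and a CArG box at 73 bases before the start.

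The count tables held between 7613011 and 10483101 counts per heart, so that 3 counts, taken as the floor of detection, correspond to 0.286 to 0.394 CPM, and 22407 genes had a count. The totals of the caffeine-treated hearts were all smaller than those of the vehicle-treated hearts. CPM are counts scaled to a shared library size with TMM factors, and levels are given in CPM. Of 13092 genes tested with edgeR's quasi-likelihood test, 14 (0.107%) passed the thresholds of Benjamini-Hochberg adjusted p below 0.05 and a fold change above 1.5. At an unadjusted p under 0.05 there were 1155 genes, 8.82% of those tested. Of all tested genes, 0.084% were higher and 0.0229% lower in the caffeine-treated hearts. In 14.2% of tested genes the lowest heart of one treatment was above the highest of the other. All 9 genes passed the filter on low counts. A single gene of the 9, Vgll2, passed the thresholds and was the only one whose hearts did not overlap, which the way it was selected fixes. The adjusted p of the other 8 ranged from 0.681 to 0.987.

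The hearts, labelled as left ventricle, carried cardiomyocyte markers, a list that was not drawn up to tell ventricle from atrium. The 7 cardiomyocyte markers summed to between 50700 and 59400 CPM in the vehicle-treated and 50000 and 54100 CPM in the caffeine-treated hearts. Of the 6 markers of atrial muscle, Sln, Myl7 and Bmp10 had at most 1, 2 and 3 counts in any heart, Myl4 had 5 to 18 and Nr2f2, which other cells also make, had 83 to 140. Nppa, which ventricles also make, was at 51.3, 90.2 and 180 CPM with vehicle and 266, 370 and 433 CPM with caffeine (log2 fold change 1.74, adjusted p = 0.125). Without vehicle replicate 3 its log2 fold change was 2.33 and passed (adjusted p = 0.00962), and it was also called by edgeR's exact test (1.73, adjusted p = 0.00063) and without a filter on low counts.

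Vgll2 (ENSMUSG00000049641, chr10:52022502-52028471, + strand) encodes a cofactor that binds TEAD factors in skeletal muscle. Its raw counts were 62, 42 and 53 in the vehicle-treated and 118, 218 and 250 in the caffeine-treated hearts. Its levels were 6.06, 3.97 and 5.37 CPM with vehicle and 16.5, 24.6 and 29.3 CPM with caffeine. Every caffeine-treated heart was above every vehicle-treated heart, and the lowest caffeine-treated heart was replicate 1. The mean was 5.13 ± 1.06 CPM (SD, n = 3) with vehicle and 23.5 ± 6.47 CPM (SD, n = 3) with caffeine, a fitted log2 fold change of 2.20 or 4.59-fold. With each heart left out in turn the log2 fold change lay between 2.01 (without caffeine replicate 3) and 2.39 (without caffeine replicate 1). Within a treatment the SD of its log2 CPM was 0.365, at the 85.6th percentile of all tested genes (median 0.176). Counting error alone gives an SD of 0.13 at the mean count over all 6 hearts. It is larger at the lower counts of the vehicle-treated hearts and smaller at those of the caffeine-treated hearts. In bulk tissue, a change in the number of cells that make an RNA and a change in the RNA per cell cannot be told apart.

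Vgll2 was also compared with other members inside each heart, where the scaling between libraries cancels. For every 100 counts of Tead1 there were 1.94, 1.09 and 1.61 counts of Vgll2 with vehicle and 5.49, 7.71 and 9.2 with caffeine. For every 100 counts of Vgll4 there were 43.7, 25.8 and 35.8 counts of Vgll2 with vehicle and 127, 136 and 198 with caffeine. Vgll2 counts were thus below those of Vgll4 in all 3 vehicle-treated hearts and above them in all 3 caffeine-treated hearts. These ratios use the values that selected Vgll2 and are a description.

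Vgll3 (ENSMUSG00000091243, chr16:65815257-65866368, + strand), the family member known from mesenchymal and muscle precursor cells, was at 1.95, 3.79 and 3.85 CPM with vehicle and 4.76, 3.84 and 3.17 CPM with caffeine. The treatments overlapped, and vehicle replicate 1 was the lowest heart. The log2 fold change was 0.29 (SE 0.304, 95% confidence interval −0.38 to 0.96, adjusted p = 0.849). With 20 to 40 counts per heart, a difference of up to 1.94-fold higher lies inside that interval. Counting error alone gives an SD of 0.254 at these counts, beside a measured 0.415 on the log2 scale.

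Vgll4 (ENSMUSG00000030315, chr6:114860628-114969994, − strand), which competes with YAP for TEAD, was at 13.9, 15.4 and 15 CPM with vehicle and 13, 18.1 and 14.8 CPM with caffeine. The vehicle-treated hearts all lay inside the range of the caffeine-treated hearts. The means were 14.8 ± 0.801 and 15.3 ± 2.56 CPM (SD, n = 3 each), with a log2 fold change of 0.06 (SE 0.147, interval −0.27 to 0.38, adjusted p = 0.955). Its sign depended on the scaling, being −0.03 with the libraries scaled by total count only. Vgll1, the remaining member of the family, had 0 counts in every heart, below the floor of 3 counts.

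**Figure D2:**
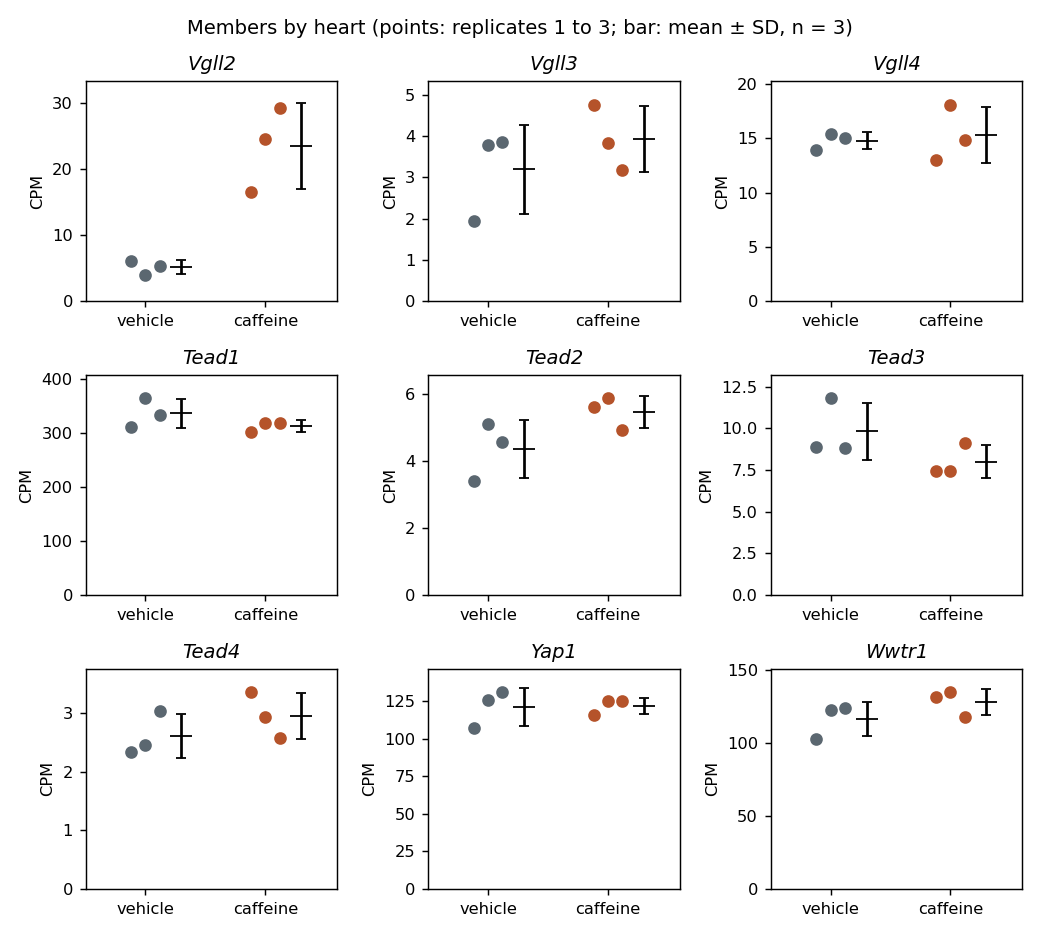
Levels of the 9 genes in each heart. The y axes give CPM and start at 0, points are the 3 hearts of each treatment, and bars give the mean ± SD. The Vgll2 values of the treatments are apart, from 3.97 to 6.06 CPM with vehicle and from 16.5 to 29.3 CPM with caffeine, and those of the other 8 genes overlap.

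Tead1 (ENSMUSG00000055320, chr7:112679318-112906807, + strand) encodes the TEAD factor best known from heart muscle and had by far the most counts of its family, between 2149 and 3849 per heart. Its levels were 312, 364 and 333 CPM with vehicle and 301, 319 and 319 CPM with caffeine. The treatments overlapped, although the caffeine-treated hearts lay in the lower part of the range. The means were 337 ± 26.1 and 313 ± 10.4 CPM (SD, n = 3 each), with a log2 fold change of −0.11 (SE 0.086, interval −0.30 to 0.08, adjusted p = 0.794). Its within-treatment SD of 0.086 on the log2 scale was at the 11.8th percentile of tested genes.

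Tead2 (ENSMUSG00000030796, chr7:45215753-45233644, + strand), known from early embryos and neural progenitors, was at 3.42, 5.11 and 4.56 CPM with vehicle and 5.6, 5.87 and 4.93 CPM with caffeine. Of the caffeine-treated hearts only replicate 3 lay inside the vehicle range. The log2 fold change was 0.32 (SE 0.221, interval −0.16 to 0.81, adjusted p = 0.733). An exon of Tead2 overlaps an exon of Cd37 on the opposite strand over 13 bases, and the sources used here do not say whether counting used strand. Cd37 itself had between 5 and 14 counts per heart.

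Tead3 (ENSMUSG00000002249, chr17:28331671-28350817, − strand), known from placenta, was at 8.89, 11.8 and 8.81 CPM with vehicle and 7.42, 7.45 and 9.15 CPM with caffeine. The treatments overlapped through caffeine replicate 3, which was above 2 of the vehicle-treated hearts. The log2 fold change was −0.30 (SE 0.178, interval −0.69 to 0.10, adjusted p = 0.681), the smallest adjusted p of the 8.

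Tead4 (ENSMUSG00000030353, chr6:128224288-128300823, − strand), known from the trophectoderm, had the lowest counts of the family, 22 to 30 per heart. Its levels were 2.34, 2.46 and 3.04 CPM with vehicle and 3.36, 2.93 and 2.58 CPM with caffeine. The treatments overlapped, with a log2 fold change of 0.17 (SE 0.26, interval −0.40 to 0.75, adjusted p = 0.903). Its within-treatment SD of 0.181 on the log2 scale was below the 0.287 that counting error alone gives at this depth.

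Yap1 (ENSMUSG00000053110, chr9:7931999-8004596, − strand), which encodes YAP, was at 107, 126 and 131 CPM with vehicle and 116, 125 and 125 CPM with caffeine. All 3 caffeine-treated hearts lay inside the vehicle range. The means were 121 ± 12.8 and 122 ± 4.96 CPM (SD, n = 3 each), with a log2 fold change of 0.01 (SE 0.097, interval −0.20 to 0.22, adjusted p = 0.987). Its sign depended on the scaling, being −0.08 by total count only. Of its 9607 distinct 75-base stretches, the read length, 0.448% are shared with Gm20416, an antisense transcript with at most 1 count in any heart, and no such stretch was shared with another gene for the other 8 genes.

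Wwtr1 (ENSMUSG00000027803, chr3:57455649-57575910, − strand), which encodes TAZ, was at 103, 123 and 124 CPM with vehicle and 132, 135 and 118 CPM with caffeine. The treatments overlapped because caffeine replicate 3 was below 2 of the vehicle-treated hearts. The means were 117 ± 11.8 and 128 ± 9.33 CPM (SD, n = 3 each), with a log2 fold change of 0.13 (SE 0.1, interval −0.09 to 0.35, adjusted p = 0.767). For every 100 counts of Wwtr1 there were 104, 102 and 106 counts of Yap1 with vehicle and 88.3, 92.4 and 107 with caffeine. These ratios overlapped too.

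The intervals of the other 8 genes give the range of differences that lie inside them. For Tead1, Yap1, Wwtr1 and Vgll4 the interval lay inside 1.5-fold in both directions. For Vgll3, Tead2, Tead3 and Tead4, which had the fewest counts, it reached past 1.5-fold on one side, and a difference of that size lies inside it. Vehicle replicate 1 was the lowest vehicle-treated heart for 7 of the 9 genes, all except Vgll2 and Tead3, and the heart with the most counts in total.

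**Figure D3:**
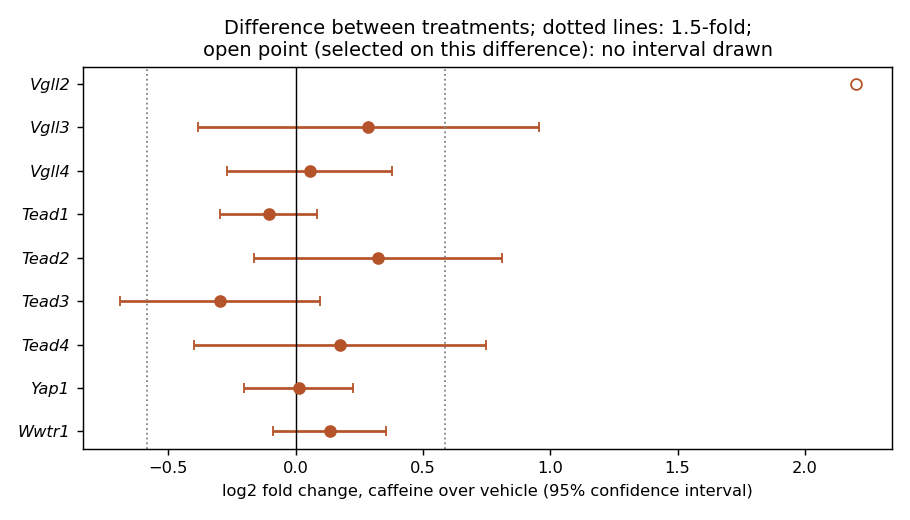
Fitted log2 fold changes, caffeine over vehicle, of the 9 genes, with 95% confidence intervals for the 8 genes not selected on this difference. The dotted lines mark 1.5-fold. Vgll2 lies at 2.20, and the intervals of the other 8 genes all include 0.

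Levels of different genes were compared as CPM per kilobase of exon. In the vehicle-treated hearts the order was Tead1 (24.8 ± 1.92), Wwtr1 (24.4), Yap1 (13.1), Vgll2 (3.11 ± 0.643), Vgll4 (2.74), Tead3, Tead2, Tead4 and Vgll3 (0.45). Neighbours whose hearts overlapped were Tead1 with Wwtr1, Vgll2 with Vgll4, and Tead2 with Tead4. In the caffeine-treated hearts Wwtr1 (26.8) and Tead1 (23.1 ± 0.766) came first, followed by Vgll2 (14.2 ± 3.92), which overlapped with Yap1 (13.2), and then by Vgll4 (2.83). The order depends on the length used. Per kilobase of coding sequence, Tead1 came first in both treatments, at 257 ± 20.0 CPM with vehicle and 239 ± 7.95 CPM with caffeine. Wwtr1 was at 86.0 ± 8.74 and 94.6 ± 6.69 CPM, so its overlap with Tead1 and its lead with caffeine hold by exon length only. By coding length, Vgll2 ranked 6th in the vehicle-treated hearts (5.31 ± 1.1 CPM per kilobase of coding sequence), below Vgll4 and Tead3. In the caffeine-treated hearts it ranked 4th by coding length (24.3 ± 6.7), above Vgll4 (16.5 ± 2.8) and below Yap1 (81.6 ± 3.48), so that its overlap with Yap1 holds by exon length only.

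**Figure D4:**
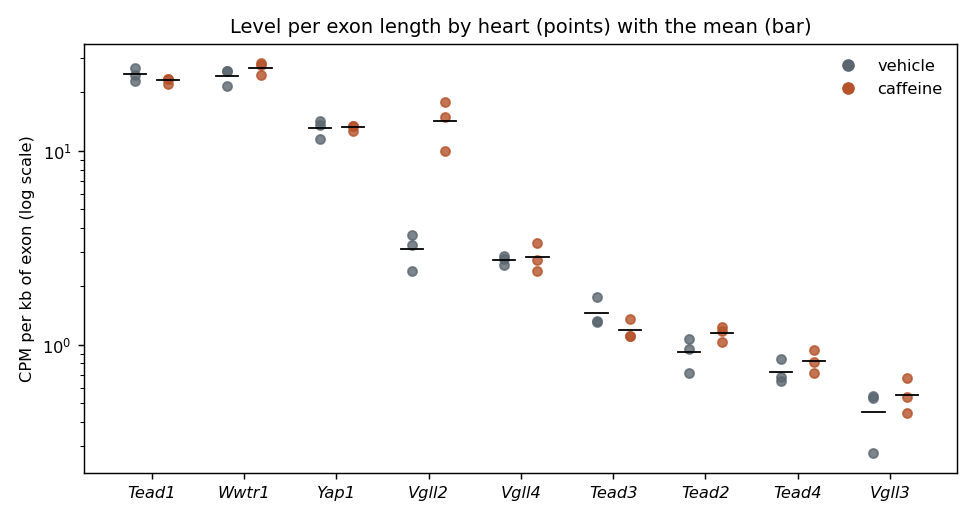
Level per exon length of the 9 genes in each heart, ordered by the vehicle mean. The y axis gives CPM per kilobase of exon on a log scale, points are hearts and bars are means. Tead1, Wwtr1 and Yap1 are highest with vehicle, and Vgll2 moves from 3.11 with vehicle to 14.2 with caffeine.

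Within each protein family, shares of the summed level per exon length were taken. Vgll2 made up 56.3%, 41.5% and 49.5% of the Vgll sum with vehicle and 76.5%, 79.3% and 84.8% with caffeine. Vgll4 made up 43.7% ± 5.06 (SD, n = 3) with vehicle and 16.4% ± 2.93 with caffeine, although its own level overlapped between the treatments, since a share falls when another member rises. By coding length the shares of Vgll2 were 21.7% ± 5.13 with vehicle and 53.5% ± 7.0 with caffeine, and those of Vgll4 65.0% ± 2.3 and 37.1% ± 4.19 (SD, n = 3 each), so Vgll4 had the largest vehicle share by that length. Tead1 made up 88.9% ± 0.572 of the TEAD sum with vehicle and 88.0% ± 0.518 with caffeine (SD, n = 3 each). Of the sum of Yap1 and Wwtr1, Wwtr1 made up 65.1% with vehicle and 67.0% with caffeine, and by coding length 51.5% and 53.7%.

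None of the core Hippo kinases and regulators passed the thresholds. Of 29 listed genes 28 were tested, with a median log2 fold change of −0.03 beside 0.001 over all tested genes, 11 with a positive and 17 with a negative value. At an unadjusted p under 0.05 edgeR's test gave 2 of the 28 (Amot and Amotl2), beside 8.82% of all tested genes, and its exact test, DESeq2 and limma-voom also called none. Amot, an angiomotin that holds YAP at cell junctions, was at 24.1, 28.0 and 34.0 CPM with vehicle and 40.0, 43.5 and 35.8 CPM with caffeine. Its hearts did not overlap, yet the log2 fold change of 0.47 (SE 0.136) had an adjusted p of 0.297. Its relative Amotl2 was lower in every caffeine-treated heart, at 84.1, 79.9 and 70.7 CPM with vehicle and 61.6, 66.4 and 65.4 CPM with caffeine, with an adjusted p of 0.379. The scaffold gene Ajuba (log2 fold change −0.41, adjusted p = 0.674) and Rassf1 (0.24, adjusted p = 0.799) overlapped between the treatments. The kinase genes, named after their values were seen because they form the core of the pathway, differed by −0.02 (Stk3), −0.02 (Stk4), −0.09 (Lats1) and −0.08 (Lats2) on the log2 scale. The adjusted p of these 4 ranged from 0.904 to 0.99.

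None of the genes of a YAP-TEAD target signature passed the thresholds. Of 22 listed genes 20 were tested, 10 with a positive and 10 with a negative log2 fold change and a median of −0.01. At an unadjusted p under 0.05 edgeR's test gave 5 of the 20, beside 8.82% of all tested genes, and its exact test, DESeq2 and limma-voom called none. The gene with the largest value was Ankrd1, which encodes a cardiac ankyrin repeat protein of the sarcomere. It was at 2110, 1730 and 3450 CPM with vehicle and 3760, 3900 and 3900 CPM with caffeine, with a log2 fold change of 0.67 (SE 0.2, interval 0.22 to 1.11) and an adjusted p of 0.317. Every caffeine-treated heart was above every vehicle-treated heart, of which replicate 3 was the highest. Without vehicle replicate 3 the log2 fold change was 1.005 and passed, with an adjusted p of 0.00962. Tgfb2, a growth factor gene, did not overlap between the treatments either (15.5 ± 1.35 and 20.6 ± 2.53 CPM, SD, n = 3 each, adjusted p = 0.371). Arhgef17 (log2 fold change −0.56, adjusted p = 0.551) and Nuak2 (0.36, adjusted p = 0.739) overlapped. The classical target Ccn2, named after its values were seen, was at 73.3 ± 15.1 CPM with vehicle and 93.2 ± 13.9 CPM with caffeine (SD, n = 3 each, adjusted p = 0.546). Amotl2, Lats2 and Ptpn14 are in both the regulator and the target list.

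Of 8 muscle genes known for M-CAT elements, all tested, 2 passed the thresholds as higher and none as lower, beside 0.107% of all tested genes in either direction. The median log2 fold change was 0.05, with 4 positive and 4 negative values. At an unadjusted p under 0.05 edgeR's test gave 3 of the 8, beside 8.82% of all tested genes. The hearts did not overlap for 4 of the 8, beside 14.2%. The rises of Acta1 and Nppb were known when the list was drawn up and are no independent evidence. Acta1, the main actin of adult skeletal muscle, was at 956, 761 and 1110 CPM with vehicle and 2540, 3150 and 2460 CPM with caffeine (log2 fold change 1.53, SE 0.144, adjusted p = 0.00296). Nppb was at 158, 151 and 236 CPM with vehicle and 779, 672 and 608 CPM with caffeine (log2 fold change 1.92, SE 0.165, adjusted p = 0.00228). In both genes every caffeine-treated heart was above every vehicle-treated heart. Within the caffeine-treated hearts Nppb was highest in replicate 1, where Vgll2 was lowest. Myh7, the β-myosin heavy chain, was 723, 732 and 785 CPM with vehicle and 882, 1060 and 927 CPM with caffeine, without overlap but with an adjusted p of 0.246. Actc1, the cardiac α-actin, did not overlap either (log2 fold change 0.16, adjusted p = 0.681). The remaining 4 genes, Tnnt2, Myh6, Ckm and Acta2, had values of −0.11, −0.31, −0.06 and −0.31 and overlapped between the treatments. An M-CAT core was found in the windows of 6 of the 8 genes, Actc1 and Ckm having none.

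**Figure D5:**
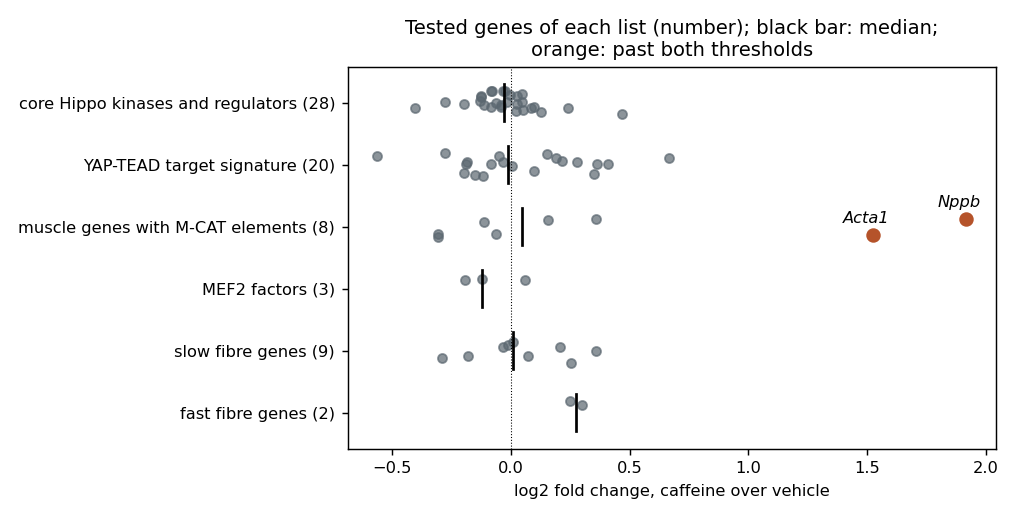
Log2 fold changes, caffeine over vehicle, of the tested genes of 6 lists (Hippo regulators, YAP-TEAD targets, muscle genes with M-CAT elements, MEF2 factors, slow and fast fibre genes). Each point is a gene, black bars are medians and orange points passed both thresholds. Acta1 (1.53) and Nppb (1.92) lie apart from the other points. The medians of these 6 lists run from −0.12 (MEF2 factors) to 0.28 (fast fibre genes, of which only 2 were tested).

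Since Vgll2 is known from skeletal muscle, where MEF2 factors are central regulators, these factors and the fibre type genes were followed too. None of the 3 tested MEF2 factors passed the thresholds, nor an unadjusted p under 0.05 with edgeR's test, nor by the exact test, DESeq2 or limma-voom. Mef2a was lower in every caffeine-treated heart (203 ± 16.8 and 178 ± 5.63 CPM, SD, n = 3 each), with a log2 fold change of −0.19 and an adjusted p of 0.576. Mef2d (−0.12) and Mef2c (0.06) overlapped. Of 10 slow fibre genes 9 were tested and none passed by edgeR, its exact test, DESeq2 or limma-voom, with a median of 0.01 and 2 of the 9 at an unadjusted p under 0.05, beside 8.82% of all tested genes. Tnnc1, the slow and cardiac troponin C, was without overlap at 2600 ± 222 CPM with vehicle and 3010 ± 123 CPM with caffeine (SD, n = 3 each, adjusted p = 0.561). Tpm3 (−0.29) and Tnnt1 (0.26) overlapped between the treatments. Of 12 fast fibre genes only Myl1 and Casq1 passed the filter, neither past the thresholds nor at an unadjusted p under 0.05, and Myh1, Myh4 and Tnnc2 had 0 counts in every heart. Casq1, the skeletal muscle calsequestrin, was at 53.3, 12.5 and 9.42 CPM with vehicle and 41.9, 8.8 and 39.6 CPM with caffeine, so that its high hearts came from both treatments.

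Markers of other cell types were set beside the Vgll2 values. Of 15 skeletal muscle markers, Myog, Myf5, Myf6, Pax7, Myh1 and Myh4 had 0 counts in every heart, Myod1 had at most 1, and the list summed to 18.5 to 29.3 CPM with vehicle and 14.1 to 33.8 CPM with caffeine, most of it Myl1. Myl1 alone was at 16.6, 27.6 and 19.9 CPM with vehicle and 32.8, 13.2 and 33.5 CPM with caffeine, and the treatments overlapped. Other markers, removed by the filter on low counts, had fewer counts with caffeine. Tnni2 had 6, 5 and 7 counts with vehicle and 0, 3 and 1 with caffeine. Atp2a1 had 3, 3 and 7 against 0, 2 and 0, and Pvalb 0, 4 and 8 against 0, 2 and 0. Actn3 had 4, 0 and 5 against 0 in each, and Mylpf 3, 3 and 2 against 1, 0 and 0. Tnnt3 had 2, 2 and 1 against 0, 0 and 1. These counts are near the floor. The 7 fibroblast markers all had positive log2 fold changes and none passed. Their sums were 773 to 897 CPM with vehicle and, without overlap, 961 to 1120 CPM with caffeine. Most of each sum was Dcn, at 570, 581 and 505 CPM with vehicle and 767, 633 and 608 CPM with caffeine. Of the 7, only Postn and Dcn did not overlap between the treatments. The 6 macrophage markers were all positive and none passed either (115 to 170 and 133 to 262 CPM). All 4 conduction system markers were negative and none passed, with sums of 27.6 to 32.0 CPM with vehicle and, without overlap, 12.1 to 14.6 CPM with caffeine. Of these, Cntn2 fell short of the threshold at a log2 fold change of −3.12 (adjusted p = 0.0584), and Hcn4, a pacemaker channel gene, at −1.13 (adjusted p = 0.102). Cntn2 passed without vehicle replicate 1 (−3.46, adjusted p = 0.00724) and Hcn4 without vehicle replicate 3 (−1.32, adjusted p = 0.0239), and both passed with scaling by total count only (adjusted p = 0.0309 and 0.0342). By edgeR's exact test 1 fibroblast (Postn), 1 macrophage (Adgre1) and 2 conduction markers (Cntn2 and Hcn4) were called, by DESeq2 the 2 conduction markers, and by limma-voom none. At an unadjusted p under 0.05 the quasi-likelihood test gave 3 of the 7 fibroblast, 1 of the 6 macrophage and 2 of the 4 conduction markers, beside 8.82% of all tested genes. The part of the skeletal muscle, fibroblast, macrophage and conduction markers in the Vgll2 difference was not tested. Endothelial (587 to 674 and 606 to 658 CPM), smooth muscle and pericyte (821 to 972 and 807 to 952 CPM), epicardial (6.38 to 15.2 and 10.9 to 15.9 CPM) and blood markers (646 to 1210 and 706 to 1520 CPM) overlapped between the treatments in their sums. None of their genes passed by any of these tools or had an unadjusted p under 0.05. Most of the smooth muscle and pericyte sum was Rgs5, with a log2 fold change of 0.036. The other 4 genes of that list were negative, from −0.104 (Pdgfrb) to −0.485 (Cnn1), and overlapped between the treatments. The part of these lists in the Vgll2 difference was not tested either.

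The genes whose log2 CPM over the 6 hearts was most like that of Vgll2 were Zfp442, a zinc finger gene (Pearson r = 0.991), the RNA helicase gene Ddx54 (0.991), the small heat shock gene Hspb8 (0.984), the cohesin loader gene Mau2 (0.981) and the Hsp40 chaperone gene Dnajb4 (0.978). The 6 points share their libraries and fall into the treatment groups, and these values describe likeness only. None of these 5 genes passed the thresholds, with log2 fold changes from 0.12 (Ddx54) to 0.91 (Zfp442). Zfp442 was low, at 1.14 to 2.81 CPM over the 6 hearts, where counting error is large. Of the 13092 tested genes, 149 had r above 0.9, and 24 had the same rank order of the hearts as Vgll2, Zfp442 among them. How many such genes chance gives was not worked out. After the treatment means were subtracted the likest genes were Tmem260 (r = 0.999), Fam184a (0.998, at only 0.56 to 1.64 CPM) and Dnajc1 (0.997). None of the 5 genes above was among these 3. The r of those 5 after that subtraction ran from 0.78 (Hspb8) to 0.97 (Zfp442). These values follow in part from picking the 5 by their r over the same hearts, and show no separate likeness. Among the other 8 genes of the pathway, r with Vgll2 ran from −0.644 (Tead3) and −0.618 (Tead1) to 0.518 (Tead2).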

How the data were processed

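Left ventricular poly(A) RNA of 6 male CD-1 mice (3 vehicle, 3 caffeine, grouped by the sample titles) was sequenced by the authors as single-end reads of 75 bases in a single NextSeq run. FastQC, TopHat2 and HTSeq, mm10/GRCm38 and Ensembl release 79 are named in the submitters' processing notes and the methods, without tool versions. The deposited values are raw counts per gene, not normalized or pooled.

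From these counts, low genes were removed by filterByExpr of edgeR (at a minimum count of 10 and a minimum total of 15), and the rest were scaled by TMM (factors 0.94 to 1.0718) and fitted with glmQLFit and glmQLFTest, treatment being the only term. Adjusted p-values are Benjamini-Hochberg values over all 13092 genes tested, and thresholds were 0.05 and 1.5-fold. The SE is the absolute log2 fold change divided by the square root of F, and intervals are 95%. The intervals come from the fit and include the spread between hearts. The floor of 3 counts covers counting error only. Replicates differed by more than sampling noise (chi-square per degree of freedom 5.37 to 14.01). Exon lengths and positions came from GENCODE M21, where 1167 of the 43629 identifiers had no entry, and promoter windows from RefSeq. Likeness to Vgll2 used log2 CPM with a prior count of 2.

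The members and lists were chosen with earlier results of these data known. Named were all 9 members, list genes past both thresholds or otherwise up to 4 with the largest absolute change, the 5 genes most like Vgll2 and the 3 most like it within treatments. Counts were fitted in R 4.3.3 with edgeR 4.0.16, with limma 3.58.1 and DESeq2 1.42.0 for alternatives, and tables and plots were made in Python 3.11.15 with NumPy 2.4.6, pandas 2.3.3 and Matplotlib 3.10.9. The quasi-likelihood fit, the exact test, DESeq2 and limma-voom were also checked on simulated counts, at their main settings only. Alternatives were edgeR's exact test, DESeq2, limma-voom, other scalings and filters, a replicate block, no fold threshold and each heart left out.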

Additional observations from a re-analysis of the deposited data

How the results depend on the processing

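Vgll2, selected on this difference, had log2 fold changes from 2.01 to 2.39 over the 14 alternatives, given as a description. Acta1 and Nppb, whose rises were known beforehand, were called under each of them. Vgll3, Tead1, Tead2, Tead3, Tead4 and Wwtr1 kept their direction and stayed short of the thresholds under all 14. Vgll4 (0.06 as reported) was −0.03 with scaling by total count only and ran from −0.09 (−0.085, without caffeine replicate 2) to 0.15 with a heart left out. Yap1 (0.01 as reported) was −0.08 (−0.077) with total count only, −0.01 (−0.009) without a filter, and ran from −0.072 to 0.072 with a heart left out. The 11 genes higher in caffeine became 62 by edgeR's exact test, 39 by DESeq2, 145 without a filter on low counts and 4 (without vehicle replicate 2 or caffeine replicate 3) to 17 (without vehicle replicate 1) with a heart left out. The 3 lower genes became 33, 28 and 95 in the same order, 15 with total count only and 0 (without vehicle replicate 2 or caffeine replicate 3) to 13 (without vehicle replicate 3) with a heart left out. Without a filter, 1 YAP-TEAD target was called (Ankrd1), and with a heart left out 0 to 1. The 5 members with an M-CAT core became 2 on the coding strand only. The cause of these shifts was not tested, except that fewer windows match when 1 strand is read.

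Over all tested genes, same-numbered hearts did not deviate together from their treatment means, with correlations of 0.045, −0.03 and −0.038. Those of differently numbered hearts ran from −0.083 to 0.12. A pairing that touches only some genes was not tested. With the replicate block the calls rose to 29 higher and 11 lower, with Nppa (1.88, adjusted p = 0.00511), Cntn2 (−3.12, adjusted p = 0.00511) and Hcn4 (−1.10, adjusted p = 0.04) among them. The intervals were widest for Vgll3, Tead2, Tead3 and Tead4, which had the fewest counts of the 8 genes, and depth was not varied.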
